A study of Mus musculus with 12 samples.

Results

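The 8 genes described here belong to acute inflammation and were followed on arrays of mouse colon: the secreted factors Cxcl1, Cxcl2, Il1b, Tnf, Ccl3 and Ccl4, and the induced genes Socs3 and Ch25h. They are 8 of the 16593 genes named on the array, and 9 of its 25697 probes carry their symbols. They were chosen on the deficient minus sufficient difference of these same arrays, so that difference is described here with no test. A member counted as well measured where its detection p-value, the chance of such a signal from negative control beads, was under 0.05 on at least 4 of 12 arrays. Cxcl1, Il1b, Tnf, Ccl4, Socs3 and Ch25h met this, and Cxcl2 and Ccl3 did not.

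The study profiled normal colon of ApcMin mice, a strain that carries a truncating germline mutation of the tumour suppressor Apc, by hybridising total RNA to Illumina bead arrays. All animals carried this allele, in both diet groups. Of these mice, 4 received a methyl deficient diet and 2 a methyl sufficient control diet, each for 11 weeks, and 2 samples were taken per animal, which gave 8 deficient and 4 sufficient arrays. The comparison asks how depletion of dietary methyl donors, the sources of methyl groups for DNA and other methylation, alters gene expression in colon without tumour. The age and sex of the mice are not given in the sources used here. Each sample was whole colon with many cell types, so fewer cells of a type and less RNA per cell cannot be told apart.

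Median signals before normalisation ran from 59.4 to 71.5, and 12609 to 13241 probes were detected per array. All 14 colon epithelium markers with a probe were measured, as were 9 of 9 fibroblast and 8 of 8 smooth muscle markers. The Y-linked transcripts Eif2s3y and Kdm5d went against the animal labels: 4 of the 6 labelled animals, both sufficient animals among them, held 1 male and 1 female array. The sufficient diet was thus represented by 2 male and 2 female arrays, and the deficient diet by 6 and 2. Each count below is therefore given with the labelled animals as units and again with arrays rejoined by sex within a diet, called sex-matched pairs. Tgm4, a prostate transglutaminase, was detected on 4 arrays, among them both sufficient male arrays.

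Microbial products and cell damage act through Toll-like receptors and the interleukin-1 and tumour necrosis factor receptors to release the transcription factor NF-kappaB, which induces cytokine and chemokine genes within a short time. Their messages are then cleared by decay factors and their signalling is damped by induced inhibitors such as SOCS3, which acts on JAK kinases upstream of STAT3. In the intestine, CXCL1 and CXCL2 recruit neutrophils, IL-1 beta and TNF activate epithelium, endothelium and leukocytes, and CCL3 and CCL4 recruit monocytes and T cells.

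Cxcl1 encodes a chemokine that attracts neutrophils through the receptor CXCR2. It lies on mouse chromosome 5 of GRCm38.p6 at 90891245 to 90893121, close to its paralog Cxcl2 at 90903899 to 90905938. Their promoter windows are shown because both hold the same kappaB motif, the site type that NF-kappaB binds, near the start of transcription, while Cxcl2 was not detected on any array. The windows, from RefSeq, run from 250 bases before to 50 bases after the start on the plus strand, at chr5:90890995-90891294 and chr5:90903649-90903948. Capitals mark the match.
Cxcl1: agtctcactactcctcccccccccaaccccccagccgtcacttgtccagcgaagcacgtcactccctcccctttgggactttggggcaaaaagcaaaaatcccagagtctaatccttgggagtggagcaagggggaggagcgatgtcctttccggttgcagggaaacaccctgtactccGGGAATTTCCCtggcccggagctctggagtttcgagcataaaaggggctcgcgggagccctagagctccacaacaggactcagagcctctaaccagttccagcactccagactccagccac
Cxcl2: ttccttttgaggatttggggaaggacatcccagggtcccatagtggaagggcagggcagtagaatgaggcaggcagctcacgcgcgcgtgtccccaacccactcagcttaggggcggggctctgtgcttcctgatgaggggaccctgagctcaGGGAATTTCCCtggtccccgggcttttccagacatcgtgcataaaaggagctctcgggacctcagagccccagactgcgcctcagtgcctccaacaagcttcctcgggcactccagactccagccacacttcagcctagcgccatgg
In each window the capitals hold overlapping matches on both strands, GGGAATTTCC as printed and GGGAAATTCC on the reverse strand. The first lay at -71 to -62 from the start in Cxcl1 and at -97 to -88 in Cxcl2.

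On the 4 sufficient arrays the normalised log2 signal of Cxcl1 was 8.37 and 10.11 in samples 1 and 2 of animal 1, and 10.10 and 8.44 in samples 1 and 2 of animal 3. On the 8 deficient arrays it was 5.22 at the lowest, 5.35 at the median and 5.97 at the highest. Every deficient array lay below every sufficient array, with a gap of 2.41 between the nearest arrays of the diets, the widest gap of the 6 well measured members. The means were 9.25 ± 0.98 (SD, 4 arrays) and 5.49 ± 0.26 (SD, 8 arrays), a difference of -3.77 and 13.6-fold lower on the deficient diet with this background correction. The difference was -2.90 without background correction, -3.04 with an offset of 50 in place of 16, and -4.38 in the authors' processed values. Cxcl1 was detected on all 12 arrays, but on the deficient arrays only narrowly, with detection p-values up to 0.0426 and signals close to the detection floor of 5.16 to 5.29, the lowest normalised signal of a detected probe on each array. In scanner units, before background correction, the range was 343 to 1075 on the sufficient arrays and 58.8 to 95.6 on the deficient arrays.

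Cxcl2, the paralog with the same motif, was detected on 0 of 12 arrays. Its normalised log2 signals of 4.69 to 5.11 on the sufficient and 4.55 to 4.67 on the deficient arrays were all below the detection floor, so no fold is given. Among the other ligands of CXCR2, Cxcl3, Cxcl5 and Cxcl15 were also detected on 0 arrays. Cxcl1 was thus the measured chemokine of this group, and the receptor Cxcr2 itself was detected on 0 arrays.

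**Figure D1:**
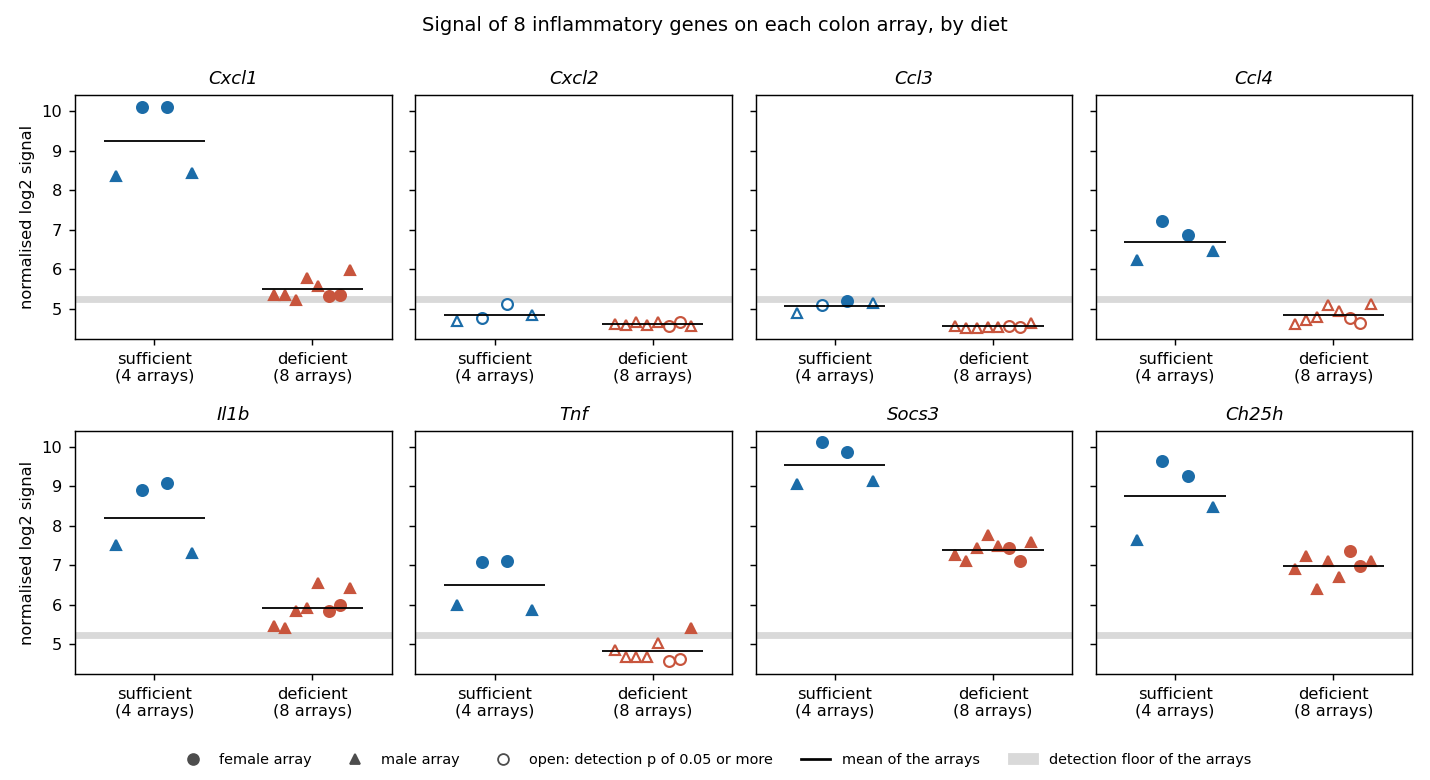
Normalised log2 signal (vertical axis) of each member on the 4 sufficient and 8 deficient arrays, with circles for female and triangles for male arrays, open symbols for a detection p of 0.05 or more, a black line for the mean and a grey band for the detection floor of 5.16 to 5.29. For Cxcl1, Il1b, Tnf, Ccl4, Socs3 and Ch25h all deficient arrays lie below all sufficient arrays, and the 2 female sufficient arrays lie above the 2 male ones.

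Il1b encodes interleukin-1 beta, which is made as an inactive precursor and cut by caspase-1 (gene on chromosome 2, 129364569 to 129371164). Its normalised log2 signal was 7.51 and 8.91 in the samples of sufficient animal 1 and 9.08 and 7.30 in those of animal 3. On the deficient arrays it was 5.41, 5.87 and 6.56 at the lowest, median and highest. The diets did not overlap, with a gap of 0.74, and Il1b was detected on all 12 arrays. The means, 8.20 ± 0.93 (SD, 4 arrays) and 5.93 ± 0.41 (SD, 8 arrays), differed by -2.27, or 4.83-fold lower on the deficient diet. The 2 highest deficient values, 6.56 and 6.43, came from the male arrays labelled animals 3 and 4.

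Tnf encodes tumour necrosis factor, a cytokine mainly of macrophages and T cells (chromosome 17, 35199367 to 35202007). Its normalised log2 signal was 5.997 and 7.07 in the samples of sufficient animal 1 and 7.10 and 5.86 in those of animal 3. The deficient arrays gave 4.56, 4.67 and 5.41 at the lowest, median and highest, and the diets did not overlap. Tnf was detected on 4 of 4 sufficient arrays and on 1 of 8 deficient arrays, a male array of labelled animal 4. The difference of the means was -1.70, and -1.24 when every signal below the detection floor was raised to it. For Tnf the size of the difference is therefore limited by background on the deficient side. It was -1.08 without background correction, -1.03 with the larger offset and -4.67 in the authors' processed values.

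Ccl4 and Ccl3 encode chemokines that attract monocytes and T cells. Both lie on chromosome 11, where the annotated span used for Ccl4 (83648624 to 83664683) overlaps that of Ccl3 (83647843 to 83649378). The Ccl4 signal was 6.22 and 7.22 in the samples of sufficient animal 1 and 6.87 and 6.47 in those of animal 3, against 4.61, 4.78 and 5.12 at the lowest, median and highest on the deficient arrays. It was detected on 4 of 4 sufficient and 0 of 8 deficient arrays. Its deficient side is only a bound, so Ccl4 was at least 2.74-fold lower on the deficient diet (measured means 6.70 and 4.83), taking the detection floor in place of a dimmer signal. This bound holds for the background correction used here: the measured difference of -1.86 was -1.17 without background correction and -1.15 with the larger offset, both less than the bound, and -4.21 in the authors' processed values. A second Ccl4 probe was detected on 2 sufficient and 0 deficient arrays, so no fold is given for it. Ccl3 was detected on 1 of 12 arrays, a sufficient female array, and its signals of 4.89 to 5.19 and 4.51 to 4.63 lay below or within the floor, so no fold is given.

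Socs3 encodes an inhibitor that binds JAK kinases and cytokine receptors of the gp130 family, and it is itself a STAT3 target (chromosome 11, 117966079 to 117970336). Its window, at chr11:117969317-117969616 on the minus strand, is shown because it alone among the windows of the members held a STAT motif, TTCNNNGAA. The start used by the RefSeq table lies inside the annotated span of the gene. Capitals mark the match, TTCTTAGAA, at -154 to -146 from that start.
Socs3: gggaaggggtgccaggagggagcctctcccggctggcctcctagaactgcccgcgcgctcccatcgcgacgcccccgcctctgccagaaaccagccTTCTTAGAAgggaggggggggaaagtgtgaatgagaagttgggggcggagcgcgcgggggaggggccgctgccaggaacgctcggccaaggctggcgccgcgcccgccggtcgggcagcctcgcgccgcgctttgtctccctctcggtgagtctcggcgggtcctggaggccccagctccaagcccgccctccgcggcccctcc
The Socs3 signal was 9.05 and 10.1 in the samples of sufficient animal 1 and 9.86 and 9.13 in those of animal 3. On the deficient arrays it was 7.10, 7.44 and 7.77 at the lowest, median and highest, with a gap of 1.27 to the sufficient arrays. Socs3 was well above background everywhere, with a detection p-value of 0 on all 12 arrays. Its means were 9.54 ± 0.54 (SD, 4 arrays) and 7.39 ± 0.24 (SD, 8 arrays), a difference of -2.15 and 4.43-fold lower.

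Ch25h encodes cholesterol 25-hydroxylase, an enzyme induced in macrophages that makes 25-hydroxycholesterol (chromosome 19, 34473783 to 34475148). Its signal was 7.64 and 9.64 in the samples of sufficient animal 1 and 9.26 and 8.47 in those of animal 3, against 6.39, 7.04 and 7.36 at the lowest, median and highest on the deficient arrays. This was the narrowest separation of the 6 members, with a gap of 0.28. The means of 8.75 ± 0.89 (SD, 4 arrays) and 6.97 ± 0.31 (SD, 8 arrays) differed by -1.78, or 3.44-fold lower.

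Over the 6 well measured members the median difference was -2.01, and over all kept probes it was 0.01. All 8 deficient arrays lay below all 4 sufficient arrays for 6 of the 6, beside 3.06% of the 13497 kept probes. These counts restate the choice of the members and carry no support. Without the sufficient female pair the differences were -2.92 for Cxcl1, -1.48 for Il1b, -1.12 for Tnf, -1.51 for Ccl4, -1.69 for Socs3 and -1.08 for Ch25h. Without the sufficient male pair they were -4.62, -3.07, -2.27, -2.22, -2.60 and -2.48 in that order.

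Of the 7 members with a promoter window (Ccl4 has none here), 2 held the kappaB motif, Cxcl1 and Cxcl2, and 1 held the STAT motif. A TATA box, TATAAA on the given strand, was found in Il1b at -31 to -26, in Tnf at -29 to -24 and in Ch25h at -151 to -146. The AP-1 motif TGANTCA and the CArG box, the serum response factor site, were found in 0 of the 7. Searched the same way, on both strands but for the TATA box, these letters occurred in 8.46% (kappaB), 8.3% (STAT), 8.32% (TATA), 7.81% (AP-1) and 1.63% (CArG) of 32841 windows of the same length. The STAT motif reads the same on both strands.

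**Figure D2:**
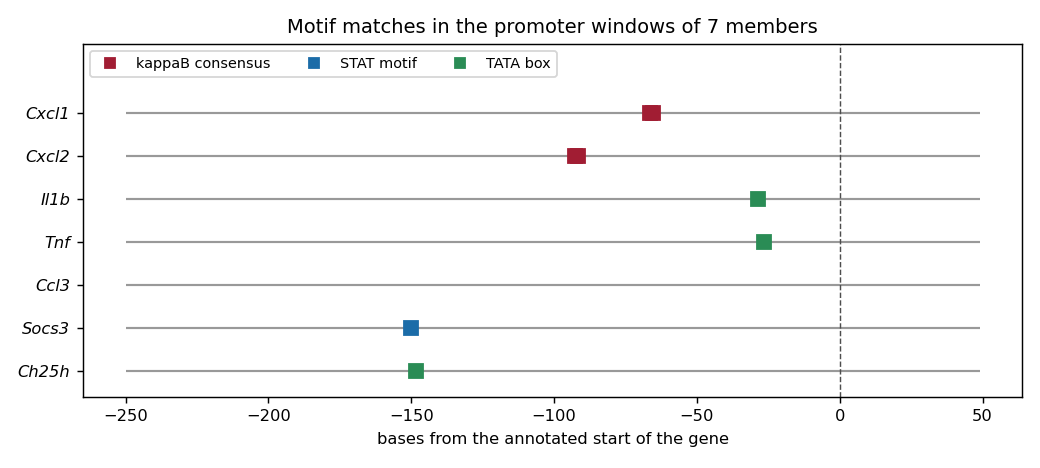
Position of each motif match in the promoter windows of the 7 members, with the distance from the annotated start in bases on the horizontal axis (250 before to 50 after) and 1 line per gene. The kappaB matches of Cxcl1 and Cxcl2 lie within 100 bases before the start, the TATA boxes of Il1b and Tnf lie closest to it, and Ccl3 has no match.

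On the sufficient diet the members were higher on the female arrays. For 6 of the 6 well measured members both female sufficient arrays lay above both male sufficient arrays, which 23.3% of all kept probes also did. The female minus male difference there was 1.70 for Cxcl1 (3.25-fold), 1.59 for Il1b, 1.39 for Ch25h, 1.16 for Tnf, 0.91 for Socs3 and 0.70 for Ccl4, against a median of -0.004 over all kept probes. On the deficient diet the same difference was -0.21 for Cxcl1, -0.03 for Il1b, -0.16 for Socs3 and 0.26 for Ch25h, with Cxcl1 close to the detection floor there. None is given for Tnf and Ccl4, which were not detected on either female deficient array.

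The diet difference was accordingly larger among female arrays (2 deficient, 2 sufficient) than among male arrays (6 deficient, 2 sufficient). It was -4.77 and -2.86 for Cxcl1, -3.09 and -1.47 for Il1b, and -2.49 and -1.04 for Tnf. It was -2.34 and -1.47 for Ccl4, -2.72 and -1.65 for Socs3, and -2.28 and -1.15 for Ch25h. The members were lower on the deficient diet within each sex. For Tnf and Ccl4 these sizes are measured against a deficient side at background, and for Cxcl1 against one close to it.

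Fitted over all probes with limma on the 6 sex-matched pairs, the interaction of diet and sex passed for 0 probes after Benjamini-Hochberg adjustment (0%; 754 had an unadjusted p under 0.05). For Cxcl1 the diet difference was smaller in size in the male pairs, with a male minus female value of 1.91 (SE 0.33, 95% interval 1.07 to 2.75, adjusted p = 0.869). For Il1b, Ch25h and Socs3, which like Cxcl1 were detected on all 12 arrays, the values were 1.62, 1.13 and 1.07, with adjusted p of 0.869 to 0.905. Averaged over the diets, the male minus female difference was -0.71 for Ch25h (SE 0.26, 95% interval -1.33 to -0.09, adjusted p = 0.851). For Il1b, Cxcl1 and Socs3 it was -0.62, -0.55 and -0.27, with adjusted p of 0.869 to 0.894, and 4 probes in all passed that test (0.0296%), those of Eif2s3y and Kdm5d and 2 of Xist. The sufficient arrays also entered the diet difference that chose the members, so these tests are not independent of the choice and support nothing about the members. Each sex on the sufficient diet is 1 pair of arrays, so sex and individual cannot be told apart, and the Tgm4 signal moved with the male pair. The part of that signal in the result was not tested.

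**Figure D3:**
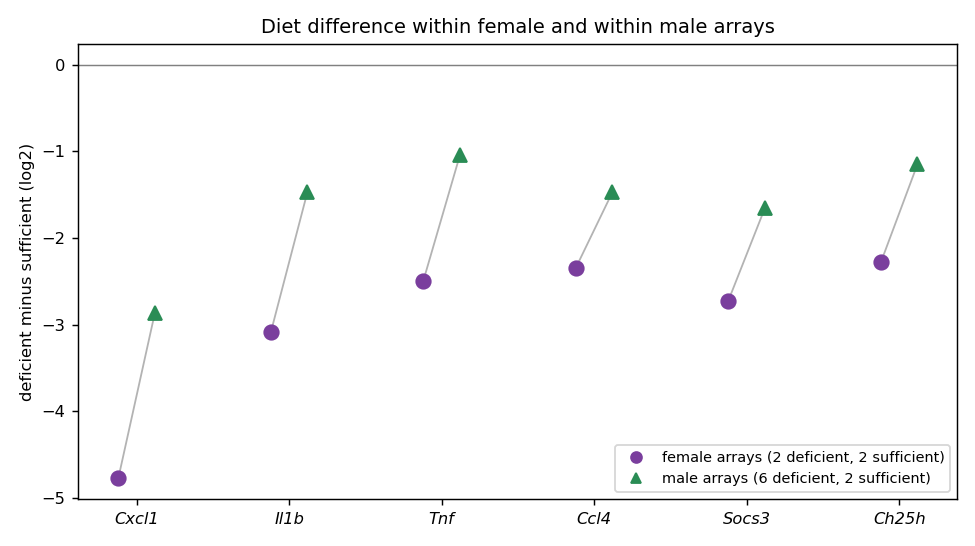
Deficient minus sufficient difference in log2 signal (vertical axis) of the 6 well measured members, computed within female arrays (purple circles) and within male arrays (green triangles). For Tnf and Ccl4 the female deficient arrays are not above background. Every value is below 0, and the female value is the lower of each pair, from -4.77 against -2.86 for Cxcl1 to -2.34 against -1.47 for Ccl4.

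Around the members, other genes of inflammation were taken from 12 lists with 340 names, of which 300 had a probe and 196 were measured. With the labelled animals, 29 of the 196 (14.8%) fell and 6 (3.06%) rose on the deficient diet (limma, adjusted p under 0.05), beside 5.51% and 5.3% of all kept probes (10.8% in both directions). With sex-matched pairs 3 of the 196 fell, Serpina3n, Timp1 and Zfp36, and 0 rose, beside 0.2% and 0.0815% of all kept probes; 36 of the 196 had an unadjusted p under 0.05 there. All deficient arrays lay below all sufficient arrays for 16 of the 196 (8.16%) and above them for 2, beside 3.06% and 3.27% of all kept probes, and the median difference over the 196 was -0.05. Without labelled sufficient animal 1 or animal 3 the count in both directions was 6, against 35 with both. With sex-matched pairs it was 3 in full, 0 after the sufficient female pair was left out and 3 after the male pair was. With sex added to the fit of the pairs, 0 of the 196 fell or rose. A unit with 1 male and 1 female array cannot be 1 mouse, and both sufficient units were of this kind. Averaging such arrays can hide how far mice of a diet differ, so p-values with labelled animals can be too small. Those p-values and the counts from them are not a valid test of the diet. The genes below are said to rise or fall by the labelled animals as a description only. The adjusted p of the sex-matched pairs is given beside it. Each count per list below stands beside 5.51% lower and 5.3% higher of all kept probes with labelled animals. With pairs, 0 genes of any list fell or rose other than the 3 named above.

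Of 21 measured chemokine ligands, 6 fell and 3 rose with the labelled animals. Cxcl13, which guides B cells into lymphoid follicles, fell by 1.55 (SE 0.21, adjusted p = 0.00531, and 0.108 with pairs), from 9.22 to 10.31 on the sufficient to 7.69 to 8.78 on the deficient arrays, without overlap. Ccl28, an epithelial chemokine that attracts IgA plasma cells, fell by 0.80 (adjusted p = 0.00434, and 0.165 with pairs). Cxcl12, a stromal chemokine, fell by 0.43 (adjusted p = 0.0139, and 0.197 with pairs), and its arrays did not overlap either.

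The monocyte chemokine Ccl7 fell by 0.95 (adjusted p = 0.00557, and 0.553 with pairs), but its sufficient female arrays lay 2.39 above the male ones, and without the sufficient female pair its difference was 0.25. The 3 chemokines that rose, named after their values were seen, were Ccl25, which attracts lymphocytes to the small intestine, by 0.90 (adjusted p = 0.0496, and 0.262 with pairs), Pf4, platelet factor 4, by 0.47 (0.0398, and 0.26), and Ccl27a by 0.39 (0.0315, and 0.427). Both directions were thus present among the ligands, with a median of -0.03 for the 21. Of the 33 ligands with a probe, 9 were detected on 0 arrays.

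Of 8 measured chemokine receptors 1 fell, Ccr6, the receptor for Ccl20 on lymphocytes, by 0.94 (SE 0.17, adjusted p = 0.0142, and 0.173 with pairs). Of 11 measured cytokines 2 fell and 1 rose. Il18, a caspase-1 product related to IL-1 beta and made by epithelium, fell by 0.87 (adjusted p = 0.00672, and 0.0872 with pairs). Il34, a ligand of the macrophage receptor CSF1R, fell by 0.86 (adjusted p = 0.00462, and 0.132 with pairs). Il17d, an interleukin-17 relative, rose by 1.45 (SE 0.15, adjusted p = 0.00189, and 0.0583 with pairs), from 5.47 to 5.93 on the sufficient to 6.77 to 7.56 on the deficient arrays.

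Il1rn, which encodes the antagonist that blocks the IL-1 receptor, fell by 0.70 (SE 0.10, adjusted p = 0.00702, and 0.083 with pairs), and its arrays did not overlap (9.91 to 10.30 against 9.16 to 9.68). Ifngr1, a chain of the interferon gamma receptor, fell by 0.45 (adjusted p = 0.0179, and 0.182 with pairs). These were 2 of the 22 measured receptors and antagonists. Csf3r, the granulocyte colony-stimulating factor receptor, differed by 0.01 (adjusted p = 0.953, and 0.967 with pairs). Il1a, Il6 and the decoy receptor Il1r2 were detected on 0 arrays.

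Of 33 measured genes of NF-kappaB signalling 4 fell and 0 rose with labelled animals, and 0 fell or rose with pairs. Of the 33 differences 25 were below 0, with a median of -0.15, beside 115 of the 196 over all lists, with a median of -0.05. Nfkbia, which encodes the inhibitor IkappaB alpha and is induced by NF-kappaB, fell by 1.19 (SE 0.11, adjusted p = 0.00164, and 0.0927 with pairs). Nfkbiz, an induced nuclear IkappaB protein, fell by 1.21 (SE 0.15, adjusted p = 0.004, and 0.128 with pairs). The others were the kinase gene Map3k8, which fell by 0.76 (adjusted p = 0.0139, and 0.169 with pairs), and Nfkbib, which fell by 0.39 (0.0472, and 0.31). Tnfaip3, the ubiquitin-editing inhibitor A20, differed by -0.49 (adjusted p = 0.0508, and 0.415 with pairs). Among 19 Toll-like and NOD-like receptor genes 1 fell, the lipopolysaccharide co-receptor Cd14, by 0.74 (adjusted p = 0.00775, and 0.083 with pairs).

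**Figure D4:**
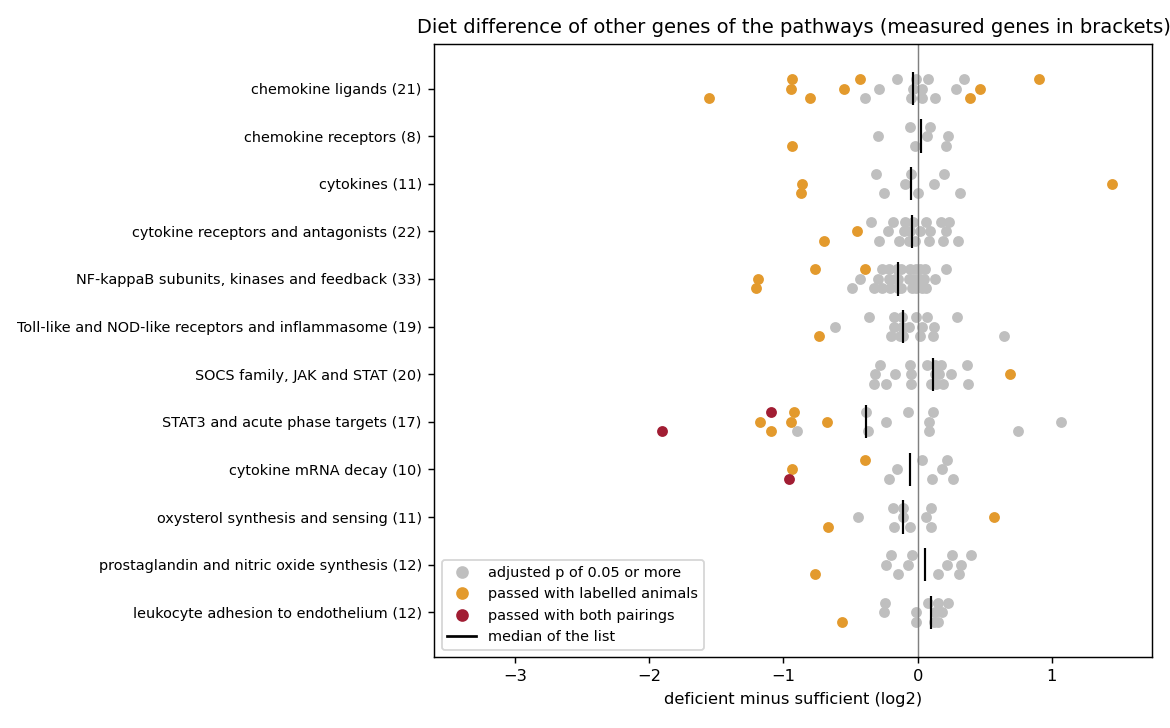
Deficient minus sufficient difference in log2 signal (horizontal axis) of each measured gene in the 12 lists, with 1 point per gene, the list median as a black line, orange for genes past an adjusted p of 0.05 with labelled animals and red for those past it with both pairings. The red points are Serpina3n, Timp1 and Zfp36, and the list medians run from -0.38 to 0.11.

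Of 20 measured genes of the SOCS family, JAK and STAT, Socs3 not among them, 0 fell and 1 rose, Socs2, a suppressor of growth hormone signalling, by 0.69 (adjusted p = 0.0466, and 0.37 with pairs). Stat3 differed by -0.31 (adjusted p = 0.159, and 0.299 with pairs), and the median of the list was 0.11.

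The list with the lowest median, -0.38, was that of STAT3 and acute phase targets, of which 7 of 17 fell and 0 rose with labelled animals, and 2 fell with pairs. Serpina3n, a secreted protease inhibitor, fell by 1.90 (SE 0.14, adjusted p = 0.000601, and 0.0277 with pairs), from 10.75 to 11.49 on the sufficient to 8.89 to 9.50 on the deficient arrays. Timp1, an inhibitor of matrix metalloproteinases, fell by 1.10 (SE 0.09, adjusted p = 0.00105, and 0.0314 with pairs), from 7.34 to 7.79 down to 6.27 to 6.70. Both held the diets apart on every array.

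Saa3, an acute phase protein, fell by 0.94 (adjusted p = 0.00364, and 0.0801 with pairs) and was detected on 4 of 8 deficient arrays. The kinase gene Pim3 fell by 0.92 (adjusted p = 0.00852, and 0.0801 with pairs). In this list 6 of 17 genes had all deficient below all sufficient arrays, beside 3.06% of all kept probes. The direction was not uniform, as 12 of the 17 differences were below 0. The largest above 0 were those of Reg3b, at 1.07 (adjusted p = 0.182, and 0.591 with pairs), and Reg3g, at 0.75. Neither passed in either fit, and the arrays of both genes overlapped between the diets.

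Cytokine messages are short-lived because decay factors bind and cut them. Of 10 measured decay factors 3 fell with labelled animals, and 1 fell with pairs. Zfp36, tristetraprolin, which binds AU-rich elements of messages such as that of Tnf, fell by 0.96 (SE 0.09, adjusted p = 0.00144, and 0.0488 with pairs), from 10.96 to 11.43 on the sufficient to 10.03 to 10.45 on the deficient arrays. Zc3h12a, the endonuclease regnase-1, fell by 0.94 (adjusted p = 0.00167, and 0.213 with pairs), with a sufficient female minus male difference of 1.17. Zc3h12d fell by 0.39 (adjusted p = 0.0359, and 0.39 with pairs).

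Near Ch25h in the oxysterol pathway 1 of 11 genes fell and 1 rose. Insig1, which holds back sterol synthesis and is a target of the factors that 25-hydroxycholesterol restrains, fell by 0.67 (adjusted p = 0.00808, and 0.2 with pairs), and the nuclear receptor gene Rora rose by 0.57 (adjusted p = 0.0143, and 0.258 with pairs). Cyp7b1, whose enzyme takes 25-hydroxycholesterol further, differed by 0.10 (adjusted p = 0.757, and 0.897 with pairs), and Gpr183, the receptor of the product, by -0.11 (adjusted p = 0.538, and 0.769 with pairs).

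Of 12 prostaglandin and nitric oxide genes 1 fell, Alox12, a lipoxygenase, by 0.76 (adjusted p = 0.0149, and 0.486 with pairs). Its sufficient male arrays lay above the female ones by 2.01 (female minus male -2.01), and without the sufficient male pair its difference was 0.24. The inducible cyclooxygenase Ptgs2 was detected on 0 arrays. Of 12 genes for leukocyte adhesion 1 fell, Vcam1, an endothelial adhesion molecule, by 0.56 (adjusted p = 0.00862, and 0.164 with pairs).

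Markers of the leukocytes that make or answer these factors were counted in the same way, beside 5.51% of all kept probes lower and 5.3% higher with labelled animals, and 0.2% and 0.0815% with pairs. The marker genes that passed were named after their values were seen. Of 16 neutrophil markers 14 had a probe and 6 were measured, of which 3 fell with labelled animals and 0 with pairs. These were Cd177, which fell by 2.47 (adjusted p = 0.00243, and 0.08 with pairs), S100a9, a calprotectin subunit, which fell by 1.73 (0.0454, and 0.182), and the formyl peptide receptor gene Fpr2, which fell by 1.02 (0.00151, and 0.224). The summed linear signal of the 6 was 2912 to 4153 on the sufficient and 504.5 to 1057 on the deficient arrays, while Cxcr2, Mpo, Camp, Elane and Mmp8 were detected on 0 arrays. Most of that sum was Cd177. The other 5 summed to 425 to 848 on the sufficient arrays and 153 to 524 on the deficient arrays, and to 670 to 848 on the female and 425 to 501 on the male sufficient arrays. The order by sex was thus that of the members without Cd177, and the reverse with it (2912 to 3102 on the female and 3612 to 4153 on the male arrays).

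Of 10 measured macrophage and monocyte markers 1 fell with labelled animals, Cd14, and 0 with pairs, and their sum overlapped between the diets, at 4486 to 5332 and 3461 to 5864. Ccr2, Itgam and Msr1 were detected on 0 arrays. Of 6 T cell markers 3 fell with labelled animals, Cd3d (adjusted p = 0.00888, and 0.334 with pairs), Cd3g (0.00327, and 0.246) and Zap70 (0.0201, and 0.162), and 0 with pairs. Of the 6, Cd8b1 alone had a difference above 0, at 0.45 (adjusted p = 0.0738, and 0.426 with pairs). The sums of the 6 were 370.3 to 426.5 on the sufficient and 238.5 to 385.2 on the deficient arrays. Zap70 was detected on 4 sufficient and 0 deficient arrays. It was thus kept through its sufficient arrays alone, and its p-values are measured against background. Its difference was -0.43, and -0.20 when every signal below the detection floor was raised to it.

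Of 8 B and plasma cell markers 5 fell with labelled animals and 2 with pairs. Pou2af1 (adjusted p = 0.00144, and 0.0277 with pairs) and Mzb1 (0.00205, and 0.0314) passed with both. Tnfrsf17 (0.000613, and 0.0855), Cd79a (0.0157, and 0.164) and Xbp1 (0.0197, and 0.214) passed with labelled animals alone. Tnfrsf17 was detected on 4 sufficient and 0 deficient arrays, so its p-values, like those of Zap70, are measured against background. The Tnfrsf17 difference was -1.03, and -0.78 when every signal below the detection floor was raised to it. The B and plasma cell sums were 6209 to 7528 and 3384 to 5049. Most of each sum was Xbp1, the brightest of the 8, with a difference of -0.44. The sums therefore mainly follow Xbp1 and say little about the other markers of the list. Of 14 epithelial markers 3 fell with labelled animals and 0 with pairs. The 3 were Car4 (adjusted p = 0.00775, and 0.264 with pairs), Aqp8 (0.00124, and 0.109) and Cdh17 (0.0122, and 0.26). The largest difference above 0 was that of Cdx2, at 0.99 (adjusted p = 0.235, and 0.536 with pairs), and the median of the 14 was -0.18. The epithelial sums were 70500 to 81230 and 58310 to 72410.

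Of the stromal lists, 3 of 9 fibroblast markers rose with labelled animals, Col1a1 (adjusted p = 0.0249, and 0.358 with pairs), Col3a1 (0.0447, and 0.182) and Pdgfra (0.0322, and 0.278). So did 1 of 8 smooth muscle markers, Synm (0.0335, and 0.31), and 1 of 6 endothelial markers, Tek (0.0201, and 0.201). With pairs 0 of these rose, and 0 fell in either fit. Of the mast cell markers 1 was measured and did not pass. The part of these cell types in the difference of the members was not tested.

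The genes whose pattern was most like that of each member were taken by the Pearson correlation, over 12 arrays and 9503 named genes, of deviations from the mean of the array's own diet. Ctla4, a T cell inhibitory receptor, followed Cxcl1 at 0.973. Cd69, an early activation marker of lymphocytes, followed Tnf at 0.951. The growth factor gene Hbegf followed Il1b at 0.952, after Slc51a, a subunit of the basolateral bile acid transporter, at 0.955. The monocyte chemokine Ccl12 was nearest to Socs3, at 0.942, and among the 3 nearest to Ccl4, at 0.947.

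Ctla4 was also among the 3 nearest of Tnf (0.927) and Socs3 (0.910), and Dbf4, an activator of a replication kinase, among those of Il1b (0.952) and Tnf (0.943). The remaining names were Spc25 (0.952) and Samsn1 (0.945) for Cxcl1, Bcl2l13 (0.953) and Tmem254a (0.952) for Ccl4, and Nfil3 (0.894) for Socs3. For Ch25h they were Mis18a (0.965), Pank3 (0.929) and Zc3h12a (0.928). Within the 8 deficient arrays alone these correlations were 0.674 to 0.956. The genes were picked by a correlation that already held these 8 arrays, so this range carries no support. Of the 8, Ccl4 was detected on 0 and Tnf on 1, and Cxcl1 was close to the floor, so their values there are largely of background. The 4 sufficient arrays held 68.6% to 85.6% of the within-diet sum of squares of the members, and arrays of 1 animal are not independent. On the sufficient diet every gene named here was higher on the female arrays, by 0.38 to 2.33, as were the members. Only the diet means were taken out first, so this split between 2 pairs of arrays stayed in the correlations. The part of this split in them was not tested. By the diet means, Slc51a, at 1.42, and Pank3, at 0.45, were higher on the deficient diet, and the other genes named here were lower. Of the lower ones, Samsn1, Mis18a, Bcl2l13 and Tmem254a did not pass with labelled animals (adjusted p of 0.0569 to 0.391). With pairs the adjusted p of the genes named here was 0.083 to 0.734. The median difference over all kept probes was 0.01.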

How the data were processed

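Bead signals are the authors' deposited scanner intensities, not normalised as far as the values show, and a second column per array holds detection p-values, by their headers as deposited. The authors' series matrix holds log2 values centred per probe, as deposited; against the scanner signals each column followed its own array (r of 0.957 to 0.979), but its normalisation is unknown, and it served as an alternative.

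Signals were background-corrected and quantile-normalised with neqc in limma 3.58.1 (R 4.3.3), offset 16, which estimates the control beads from those p-values. Probes with detection p under 0.05 on at least 4 arrays were kept (13497 of 25697, 52.5%). Probe names came from the platform annotation (23978 with 1 symbol, 0 with several, 1719 unnamed here; 23962 found in RefSeq, GRCm38.p6). Gene lists used the kept probe with the highest mean signal.

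Animal means were fitted with lmFit and eBayes, two-sided, with Benjamini-Hochberg adjustment over all kept probes. Sex-matched pairs, the sex covariate and the interaction used the same call. The procedure was tested on simulated data. In each list the 4 smallest p past the threshold are named, and some genes in any case (Il1a, Il1rn, Il1r2, Il6, Cxcl5, Cxcr2, Nfkbia, Tnfaip3, Nfkbiz, Zfp36, Stat3, Cyp7b1, Gpr183, Ptgs2, Csf3r). Members and lists were chosen with earlier results of these data known. The number of arrays limits the precision.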

Additional observations from a re-analysis of the deposited data

Results flagged for a closer look

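In 82 groups of 4 or 8 arrays of a named gene on a diet, 2 held an array far from the others, where chance gives about 5%. Cd14 on the sufficient diet had 1 array, sample 1 of animal 3, at 10.01, and the nearest of the other 3 was at 9.86, which is 0.884 of the whole range. Saa3 on the deficient diet had sample 1 of animal 3 at 5.75, with the nearest of the other 7 at 5.42, which is 0.529 of the range.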

How the results depend on the processing

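Each value was recomputed under other settings; those without the Tgm4 pairs or within a sex were chosen after seeing the data. The 1460 probes past the threshold with labelled animals became 38 with sex-matched pairs, 7 with sex as a covariate, 522 with the pair as a random block, and 0 without the pairs with Tgm4 signal (1712 at an unadjusted p under 0.05) or within male arrays (982). Leaving out 1 labelled animal gave 87 to 2060 against 1460, with 98 without sufficient animal 1 and 87 without animal 3; leaving out 1 pair gave 0 to 351 against 38, with 0 without the sufficient or the deficient female pair (1141 and 1704 unadjusted), 54 without the sufficient male pair, 6 and 14 without deficient animals 1 and 2, and 351 without the rejoined deficient male pair. The 35 list genes became 3, 0, 18, 0 and 0 in the same order, and 6 to 46 with 1 labelled animal and 0 to 9 with 1 pair left out. The median of the members, -2.01, was -3.43 in the authors' matrix, -2.54 without the Tgm4 pairs, -2.61 within female arrays, -1.47 within male arrays and -2.54 to -1.50 with 1 unit left out; no member reversed. The 4 probes of the sex test were 1 without background correction, 1 without the detection filter and 2 with the stricter filter (detection p under 0.01 on 8 arrays), which kept only Il1b, Socs3 and Ch25h of the members; the interaction passed for 1 probe in the matrix. With 1 value per gene and setting, 17 values of the other named genes reversed and 333 lost the threshold, while 472 stayed the same and 5 were stronger. Of the values of the members 40 moved and 113 stayed the same. Ccl7 ran from -2.14 to 0.25 with 1 unit left out and was 0.57 within male arrays. Alox12 ran from -1.77 to 0.24 and was 0.14 without the Tgm4 pairs, Cyp7b1 from -0.12 to 0.33 and -0.16, Csf3r from -0.13 to 0.16 and -0.089. Gpr183 ran from -0.35 to 0.13 and was 0.10 within male arrays. With the animal number as a replicate block, 638 probes and 25 list genes passed. Deviations of same-numbered animals from their diet means had correlations of -0.06 and -0.05. The deviations of the 2 sufficient animals mirror each other, and their labels join arrays of both sexes. These correlations therefore cannot show whether the numbers mark a pairing. The cause of these changes was not tested. Without the Tgm4 pairs, within male arrays or without 1 sufficient unit, the sufficient diet was left with 1 unit. The counts there cannot tell a weaker difference from lost replication. Signal over background limits Tnf, Ccl4, Ccl3 and Cxcl2, and Zap70 and Tnfrsf17 among the markers.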
